A study of Homo sapiens with 8 samples.

Results

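Chromatin accessibility over the replication-dependent histone gene clusters was taken from ATAC-seq peak lists of the oral squamous cell carcinoma lines KOSC-2, which the labels call radiosensitive, and HSC-3, which they call radioresistant. Irradiated cells were given 8 Gy and their controls 0 Gy, and both were frozen after 24 hours. Each combination of line and dose has 2 libraries, so that the 4 groups were KOSC-2 0 Gy, KOSC-2 8 Gy, HSC-3 0 Gy and HSC-3 8 Gy. The study was set up to compare lines of different radiosensitivity under these doses. Since each class is represented by 1 line, line and radiosensitivity cannot be told apart. Nothing in the labels says that replicate libraries are separate cultures, and the p-values therefore cover only the spread between these libraries, which may be technical.

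Peaks of the 8 lists were merged wherever they shared at least 1 bp, and the merged regions that overlapped any of 3 windows on build hg19 were kept. The first HIST1 window was chr6:26000000-26300000, the second was chr6:27050000-27900000, and the HIST2 window was chr1:149750000-149900000. They held 138 of the 80588 merged regions of chromosomes 1 to 22 and X: 42 in the first HIST1 window, 88 in the second and 8 in the HIST2 window. The lists carry no gene names and no gene annotation of hg19 was used here, so open regions are given by position and were not assigned to single histone genes.

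Replication-dependent histone genes encode the core histones H2A, H2B, H3 and H4, which form the nucleosome, and the linker histone H1, which binds the DNA between nucleosomes. They are small genes without introns, present in many copies and transcribed mainly while DNA is replicated, and their mRNAs end in a stem-loop in place of a poly(A) tail. Many H2A and H2B genes stand head to head and share the short stretch of DNA between them as a promoter. In the RefSeq gene table (GRCh38.p14, used for names and order alone) 66 of 78 listed names were found, of which H2AC1 and H2BC1 stand apart from the other genes on chromosome 6. The other 64 fell by gene order into a HIST1 stretch of 32 genes from H1-1 to H4C8, shorter HIST1 stretches of 5 genes (H2BC11 to H2AC12) and 16 genes (H2BC13 to H2BC17), and a HIST2 stretch of 11 genes (H2BC18 to H2AC21) on chromosome 1. Between H2AC12 and H2BC13 the table lists 77 other genes, 51 of them tRNA genes, and between H4C8 and H2BC11 it lists 84, 47 of them tRNA genes. Neighbouring H2A and H2B genes transcribed away from each other numbered 9 pairs among the 64 genes.

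The promoters of 4 histone genes show the kind of sequence that lies in these clusters. They are the 250 bases before the annotated start in RefSeq on GRCh38.p14, 5′ to 3′ on the strand of the gene, and their positions are of that build and cannot be set against the hg19 positions of the open regions. H1-1 (chr6:26017788-26018037, minus strand) and H4C8 (chr6:26285535-26285784, minus strand) stand at the ends of the longest stretch, and H2AC4 (chr6:26033619-26033868, minus strand) and H2BC3 (chr6:26043714-26043963, minus strand) are its first H2A and H2B genes with a promoter in the table. Capitals mark matches, on either strand, to TATAAA, the TATA box of the general transcription machinery, to CCAAT, the site of the factor NF-Y, to ATTTGCAT, the octamer read by the POU factor OCT1 that is known from H2B promoters, and to GGACTT.
H1-1: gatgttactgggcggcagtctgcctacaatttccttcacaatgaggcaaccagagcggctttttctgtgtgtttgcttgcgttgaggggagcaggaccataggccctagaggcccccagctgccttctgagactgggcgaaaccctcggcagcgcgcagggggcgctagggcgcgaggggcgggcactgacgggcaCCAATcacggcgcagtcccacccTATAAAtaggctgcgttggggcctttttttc
H4C8: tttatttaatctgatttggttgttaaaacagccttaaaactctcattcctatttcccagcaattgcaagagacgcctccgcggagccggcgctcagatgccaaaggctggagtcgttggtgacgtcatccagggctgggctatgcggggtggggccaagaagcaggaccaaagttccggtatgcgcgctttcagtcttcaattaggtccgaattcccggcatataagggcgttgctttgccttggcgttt
H2AC4: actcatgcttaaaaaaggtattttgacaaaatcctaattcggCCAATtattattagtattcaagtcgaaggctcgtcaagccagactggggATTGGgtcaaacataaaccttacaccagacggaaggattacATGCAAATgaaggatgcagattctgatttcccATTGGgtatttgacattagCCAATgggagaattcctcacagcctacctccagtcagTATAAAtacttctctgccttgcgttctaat
H2BC3: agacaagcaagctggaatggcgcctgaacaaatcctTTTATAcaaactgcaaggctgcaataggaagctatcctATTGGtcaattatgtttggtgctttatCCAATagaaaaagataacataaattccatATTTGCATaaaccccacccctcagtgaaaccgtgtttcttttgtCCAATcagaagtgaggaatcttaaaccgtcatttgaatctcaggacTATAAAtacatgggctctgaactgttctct

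The first start listed for each gene was used, and 4 histone genes have more than 1. Of the 61 histone genes with a promoter in the table, 41 (67.2%) held TATAAA, against 11.1% of all 27305 promoters of the same length. CCAAT was in 52 (85.2%), against 33.0% of all promoters. The octamer was in 26 (42.6%), against 1.66%, and these were 14 of 17 H2B, 11 of 15 H2A and 1 of 11 H3 promoters, and 0 of 6 H1 and 0 of 12 H4 promoters. The H3 promoter is that of H3C4, whose first listed start is also the start of the neighbouring H2A gene H2AC7, so that 1 sequence counts in both classes. Without it 0 of 10 H3 promoters held the octamer. Head-to-head H2A and H2B genes may likewise have the same match counted in both classes, for any of the motifs. How often this happened was not counted, so the promoters with a match are not all separate sequences. CCAAT was found in 3 of 12 H4 promoters and in each of the 49 promoters of the other classes. GGACTT was in 6 (9.84%), against 11.3%. No match overlapped a match of another motif in these 61 promoters. A match is a run of letters and does not show that a factor binds.

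Some promoters of different histone genes are copies of each other, besides the start shared by H3C4 and H2AC7, which bears on how reads can be placed. The 250 bases before H4C14 (chr1:149832407-149832656, plus strand) and before H4C15 on the minus strand, both HIST2 genes for histone H4, differed at 0 bases, and those of the HIST1 genes H4C11 and H4C12 at 5 bases. One copy of the HIST2 pair is shown, since the other is letter for letter the same. It has no match to the 4 motifs.
H4C14: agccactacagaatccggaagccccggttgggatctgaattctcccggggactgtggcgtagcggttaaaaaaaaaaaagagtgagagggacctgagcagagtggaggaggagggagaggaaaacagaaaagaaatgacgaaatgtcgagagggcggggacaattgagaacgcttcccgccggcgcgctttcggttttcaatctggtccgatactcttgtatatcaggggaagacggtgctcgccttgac

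How the authors treated reads that fit 2 places equally well is not given in the sources used here, and the part of such copies in the calls of the HIST2 window was not tested.

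The lists held 22504 to 51693 peaks on these chromosomes. Depth, read from the genome-wide background under the peaks, was 20.2 to 64.8 reads per 10 kb, and no peak had a pileup under 5 to 9 reads, so weaker open regions were not detectable. The lists of HSC-3 were short in replicate 2 at 0 Gy (23490 peaks) and in replicate 1 at 8 Gy (22504 peaks), against 38234 to 51693 in the other 6 libraries, and the comparisons of lines and doses are also given without them.

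The histone windows were dense in open chromatin in every library. The flanks used for comparison were the 1 Mb before the first HIST1 window, the stretch between the HIST1 windows, the 1 Mb after the second and the 1 Mb after the HIST2 window. Values of a line are given in the order unirradiated replicates 1 and 2, irradiated replicates 1 and 2. For KOSC-2, 53.8, 61.5, 82.3 and 68.5 regions per Mb were called in the windows. For HSC-3 it was 61.5, 33.8, 43.8 and 68.5. The flanks of the same libraries held 13.3 to 30.4 per Mb. The windows were higher in 8 of 8 libraries, by 36.5 ± 9.66 regions per Mb (SD, n = 8), 59.2 against 22.8 on average (exact two-sided sign-flip permutation test over libraries, p = 0.00781, the smallest that 8 libraries can give). Over the merged regions the density was 140 per Mb in the first HIST1 window, 104 in the second and 53.3 in the HIST2 window, against 41.3 in the flanks and 27.5 over the genome. The single flank after the HIST2 window had 51.0 regions per Mb, near the value of the HIST2 window itself. In each of the 2 short HSC-3 lists the HIST2 window had 1 called region, so the higher density is that of the 3 windows together.

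**Figure D1:**
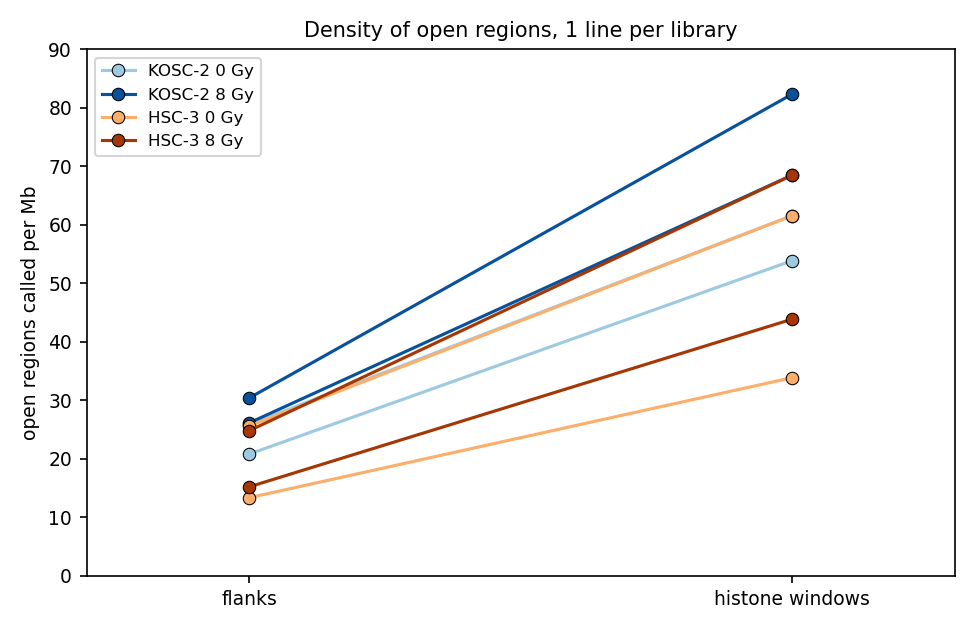
Open regions called per Mb (vertical axis) in the flanks and in the histone windows, with 1 line for each of the 8 libraries, coloured by cell line and dose. Every line climbs from flanks to windows, from 13.3 to 30.4 per Mb in the flanks to 33.8 to 82.3 per Mb in the windows.

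The open regions of the windows stood close together. The nearest neighbour lay a median of 442 bp away in the first HIST1 window and 3054 bp away in the second, against 7915 bp over all merged regions. A neighbour within 1 kb was found for 65 of 138 regions (47.1%), against 13.5% of all regions. For regions called in all 8 libraries the share was 15 of 28 (53.6%), against 10.6%. There were 35 such neighbouring pairs in the windows, with a median gap of 404 bp, and in 13 of them both regions were called in at least 5 libraries. The same share over all neighbouring pairs of the genome was not counted, so the 13 are no result about the windows. One of the 13 pairs was chr6:26123057-26123644, called in 7 libraries, and chr6:26124047-26124542, called in 8, with 402 bp between them. The pileup at the summit of the first was 56, 51, 66 and 45 reads in KOSC-2 and 45, none called, 40 and 62 reads in HSC-3. At the second it was 55, 56, 58 and 51 reads in KOSC-2 and 51, 34, 49 and 53 reads in HSC-3. The members of this pair were thus of like height within a library. In the pair chr6:26026461-26026909 and chr6:26027100-26027754 both regions were called in 7 libraries, with a gap of 190 bp, and in chr6:26032188-26033277 and chr6:26033476-26034453 the gap was 198 bp.

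In all, 28 of the 138 regions (20.3%) were called in all 8 libraries, where 15.9% of all merged regions were, and 31 (22.5%) in 1 library, where 31.9% of all regions were. The 155 flank regions had 33 (21.3%) called in all 8 and 41 (26.5%) in 1 library, so the share called throughout was not higher in the windows than in the flanks. The first HIST1 window had 13 of 42 regions (31.0%) called in all 8, the second 15 of 88 (17.05%) and the HIST2 window 0 of 8. A further 20 regions (14.5%) were called in 7 libraries, where 7.59% of all regions and 22 of the flank regions were. The missing library was 1 of the 2 short HSC-3 lists in 18 of the 20, and in 85.0% of all regions called in 7. Called in each of the 6 longer lists were 52 regions (37.7%, against 26.3% of all regions).

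**Figure D2:**
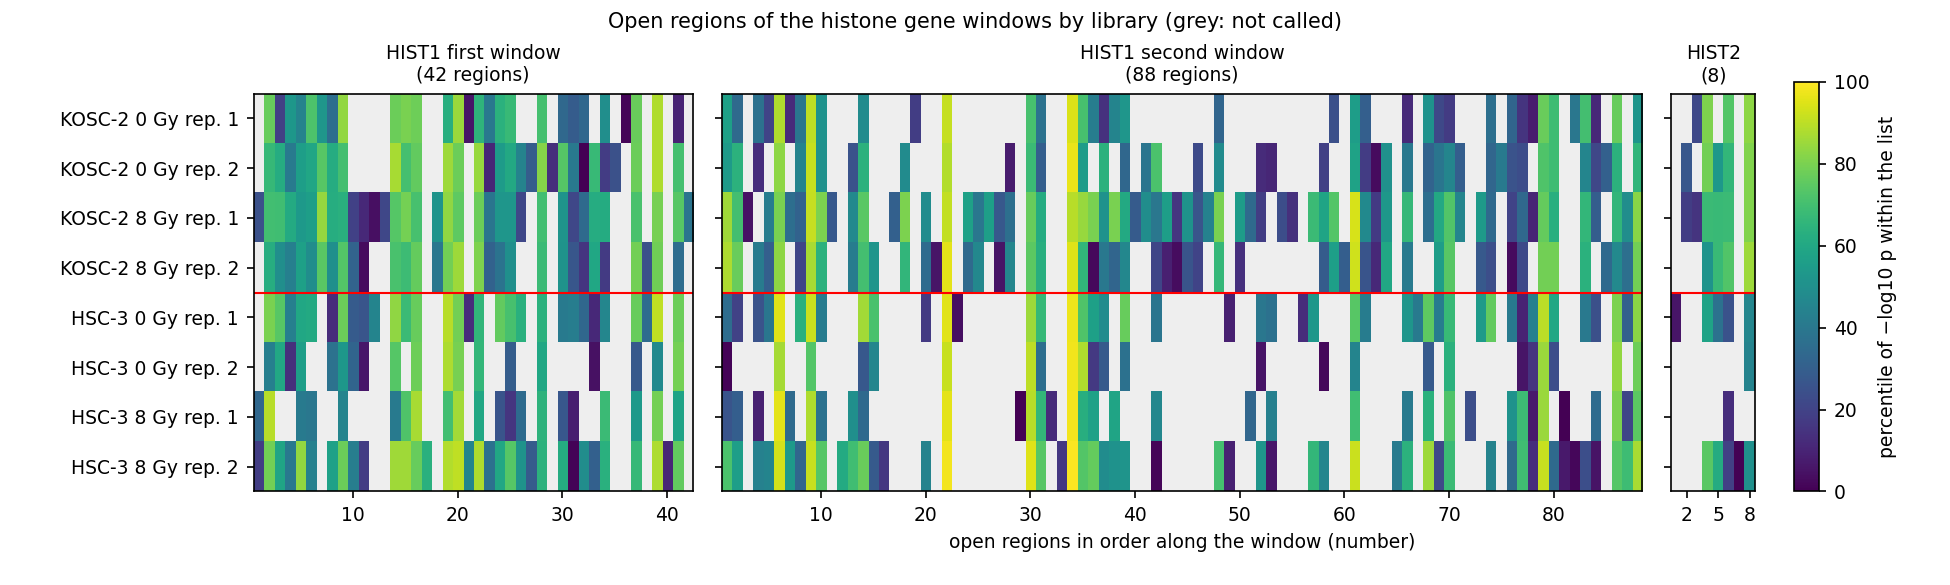
Open regions of the histone windows in order along each window (horizontal axis, by number) in the 8 libraries (rows; the red line separates the KOSC-2 rows from the HSC-3 rows below). Colour gives the percentile of the authors' −log10 p within the list of that library and grey marks regions not called, with 28 columns filled in all 8 rows and 31 in a single row.

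The 4 strongest of the regions called in all 8 libraries lay in the second HIST1 window. Whether the regions named here stand at histone genes or at other genes was not determined. Fold enrichment and −log10 p are the authors' values of each peak within its own list, and the percentile ranks a peak by −log10 p within that list. The top region of that window was chr6:27440046-27441245, with a mean percentile of 96.0. Its fold enrichment at the summit was 11.4, 14.5, 10.6 and 14.3 in the KOSC-2 lists and 11.3, 11.6, 11.3 and 14.5 in the HSC-3 lists. It ranked above the 89th percentile in each list. Next within it were chr6:27218746-27219997 (mean percentile 93.4), chr6:27100376-27100986 (88.2), chr6:27114501-27115054 (88.1) and chr6:27805949-27806513 (81.9). The first HIST1 window was led by chr6:26171963-26173168 (mean percentile 82.2), with a fold enrichment of 9.13 to 12.9 over the lists. It was followed by chr6:26285496-26286287 (79.8), chr6:26124047-26124542 (77.4), chr6:26157262-26158525 (75.6) and chr6:26103802-26104625 (74.1). The median over the 28 regions was 67.1, against 74.8 over the 12827 regions of the genome called in all 8. The widest members were chr6:26055118-26056921 (1804 bp), chr6:26020468-26022128 (1661 bp) and chr6:27719795-27721385 (1591 bp, called in 7 libraries). In the first pair of these the highest summit moved by up to 1299 bp between libraries.

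The window edges fell between regions on most sides. The regions nearest to the edges of the first HIST1 window were chr6:26017800-26018205 (3 libraries) and chr6:26297048-26297420 (1 library) inside, and chr6:25998569-25999012 (3 libraries) and chr6:26304938-26305917 (5 libraries) outside. For the second they were chr6:27059386-27060231 and chr6:27870128-27871341 (8 libraries each) inside, and chr6:27046656-27047078 (4 libraries) and chr6:27930348-27930667 (1 library) outside. In the HIST2 window they were chr1:149820236-149820535 (1 library) and chr1:149899346-149900401 (7 libraries), the latter reaching over the edge, and outside chr1:149223575-149224315 (8 libraries) and chr1:149909258-149909672 (4 libraries).

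The lines were compared first. Called members numbered 70, 80, 107 and 89 in the KOSC-2 libraries and 80, 44, 57 and 89 in the HSC-3 libraries, in the order given above. The lines overlapped, and the KOSC-2 mean of 86.5 ± 15.7 and the HSC-3 mean of 67.5 ± 20.7 (SD, n = 4 each) were not separated beyond the spread between libraries (exact two-sided permutation test, p = 0.257, Benjamini-Hochberg adjusted 0.343 over 4 measures). The short HSC-3 lists gave the values of 44 and 57. With each list reduced to its strongest 22504 peaks the difference in called members turned from 19 to -4.25 (exact permutation p = 0.400). As a share of each list, the windows held 20.6 ± 1.45 peaks per 10000 in KOSC-2 and 21.96 ± 2.87 in HSC-3 (exact permutation p = 0.514, adjusted 0.514). The bases covered were 49.8 ± 10.99 kb and 37.6 ± 13.3 kb (exact permutation p = 0.229, adjusted 0.343). The median peak in the windows was 473 ± 20.05 bp wide in KOSC-2 and 448 ± 21.8 bp wide in HSC-3 (exact permutation p = 0.257, adjusted 0.343). Without the 2 short lists the differences between the lines were 2.25 members, 1.07 kb, -0.229 peaks per 10000 and 5.88 bp of median width (exact permutation p from 0.867 to 0.933). With lists of equal length the bases covered differed by 0.870 kb (exact permutation p = 0.743). None of the 4 measures passed at 0.05.

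Region by region, 85 of the 138 (61.6%) were called in both lines, where 51.8% of all merged regions were. Called in KOSC-2 libraries alone were 37 (26.8%, against 32.0%), and in HSC-3 libraries alone 16 (11.6%, against 16.2%). All 4 KOSC-2 libraries called 56 members (40.6%, against 31.8%), and 55 of these (98.2%, against 93.5%) had a call in HSC-3 too. The exception was chr6:26043787-26044517 in the first HIST1 window, the 1 member (0.725%) called in all KOSC-2 and no HSC-3 libraries, a pattern that 2.07% of all merged regions had. Its pileup at the summit was 28, 46, 64 and 45 reads in the 4 KOSC-2 libraries, with an authors' fold enrichment of 6.18, 8.10, 8.76 and 8.70 and a mean percentile of 71.3. The summits of the 4 peaks lay within 36 bp of each other. The reverse pattern, all HSC-3 and no KOSC-2 libraries, was found for 0 members and 0.300% of all regions. With 138 members, counts of 1 and 0 are too few to set these shares apart from those of all regions.

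In the HIST2 window the calls were few, and 2 regions had lower summit pileups and within-list percentiles in HSC-3. The region chr1:149870887-149871458 had a summit pileup of 38, 28, 35 and 31 reads in KOSC-2 and of 15, none called, 18 and 12 reads in HSC-3. At chr1:149899346-149900401 it was 51, 45, 48 and 49 reads in KOSC-2 and 22, 16, none called and 18 reads in HSC-3. For scale, the median over regions called in all 8 libraries was 50, 52, 61 and 49 reads in the KOSC-2 libraries and 42, 21, 28 and 39 in the HSC-3 libraries. That median was thus lower in HSC-3 as well. At the first region HSC-3 8 Gy replicate 1 had 18 reads against 28. KOSC-2 8 Gy replicate 1 had 35 against 61, which is no higher relative to the median. Within-list percentiles at the first region were 66.2 to 73.4 in KOSC-2 and 13.3 to 25.3 in HSC-3. At the second they were 80.9 to 85.5 and 44.7 to 50.4. These regions were singled out after their values were seen, so the difference is a description. At chr1:149858111-149858568 the pileup was 63, 63, 63 and 44 reads in KOSC-2 and 37, none called, none called and 43 reads in HSC-3. Its within-list percentiles overlapped between the lines, at 51.4 to 80.7 in KOSC-2 and 58.0 and 74.6 in HSC-3. No region was called between chr1:149750000 and the first peak at 149820236.

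The members open in every library stood differently within the lines when measured against the same library. All 28 of these members lie in the HIST1 windows of chromosome 6, with 0 from the HIST2 window. Their median summit pileup divided by that of all regions called in all 8 libraries was 0.790, 0.875, 0.828 and 0.939 in KOSC-2. In HSC-3 it was 1.0, 1.12, 1.05 and 1.18. The values of the lines did not overlap. The local background of the same members, given with its values at the end, separated the lines in the same direction. Relative to all regions called in all 8, it was higher in each HSC-3 library than in any KOSC-2 library. Its part in the pileup measure was not tested. The pileup measure was added after the data were seen and has no test.

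The second question was whether irradiation changed the windows. The share of peaks that fell in the histone windows was higher in the irradiated libraries of both lines, by a difference that did not pass the test. In KOSC-2 19.4 and 19.4 of every 10000 peaks fell in the windows at 0 Gy and 21.5 and 22.2 at 8 Gy. In HSC-3 it was 20.5 and 20.01 at 0 Gy and 26.2 and 21.1 at 8 Gy. Both irradiated libraries thus lay above both unirradiated ones in each line, with a mean difference of 2.94 over both lines (KOSC-2 alone 2.47, HSC-3 alone 3.41). Permuting doses within lines gave an exact two-sided p = 0.0556, below which 2 libraries a dose cannot go, and the Benjamini-Hochberg value over 3 measures was 0.167. Of 1632 stretches of the genome of the same total length, 1.3 Mb, with at least 20 regions, 1.59% had this order of doses in both lines and 1.78% the reverse order. These stretches are unbroken and were matched to the windows by length alone. The windows are 3 pieces with 138 regions, so the rates are not a matched background. The highest value came from the short HSC-3 8 Gy list replicate 1, without which the mean difference was 1.66 (exact permutation p = 0.0556). Without both short lists it was 1.54 (exact permutation p = 0.167, the smallest possible with the libraries left). With lists of equal length it was 4.55 (exact permutation p = 0.0556).

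**Figure D3:**
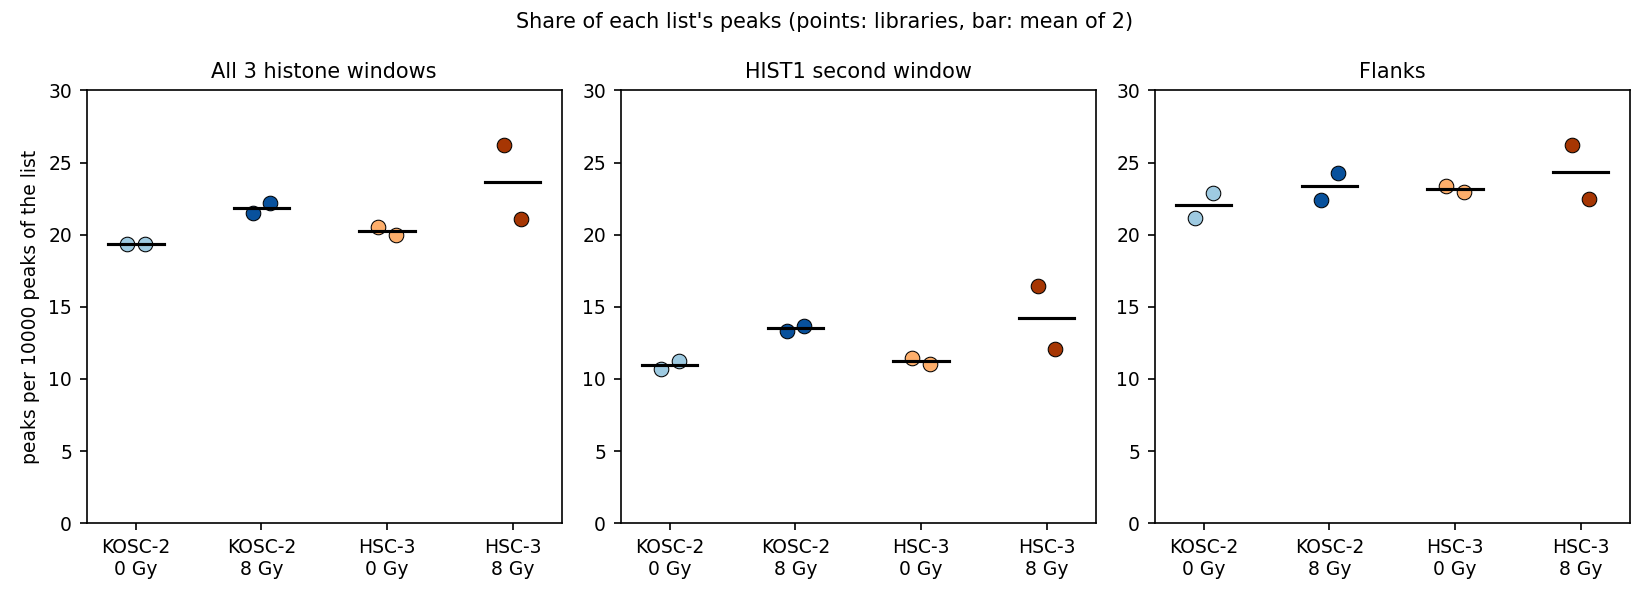
Peaks per 10000 peaks of the list (vertical axis) in all 3 histone windows, in the second HIST1 window and in the flanks, by line and dose. Points are libraries and bars the mean of 2, and the 8 Gy points lie above the 0 Gy points of the same line in the left and middle panels and overlap them in the right one.

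The second HIST1 window carried nearly all of this difference. There 10.7 and 11.2 of every 10000 KOSC-2 peaks were found at 0 Gy and 13.3 and 13.7 at 8 Gy, and in HSC-3 11.4 and 11.1 at 0 Gy and 16.4 and 12.1 at 8 Gy. The mean difference was 2.77 (exact permutation p = 0.0556). It was 0.236 in the first HIST1 window (exact permutation p = 0.556), -0.0688 in the HIST2 window (p = 0.667 by the same exact test) and 1.26 in the flanks (exact permutation p = 0.333). These parts were examined after the whole had been seen. Between the HIST1 stretches ending at H2AC12 and starting at H2BC13 the gene table lists 77 other genes, 51 of them tRNA genes. Regions of the second HIST1 window were not assigned to genes, so its difference is not shown to be one at histone genes. The flanks, at 21.2 and 22.9 against 22.4 and 24.3 in KOSC-2 and 23.4 and 22.99 against 26.2 and 22.5 in HSC-3, overlapped between doses.

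Absolute numbers differed in the same direction with more scatter. Called members averaged 75.0 ± 7.07 at 0 Gy and 98.0 ± 12.7 at 8 Gy in KOSC-2, and 62.0 ± 25.5 and 73.0 ± 22.6 in HSC-3 (SD, n = 2 each). The mean difference was 17 (exact permutation p = 0.222, adjusted 0.222). Bases covered were 42.6 ± 5.83 kb at 0 Gy and 56.9 ± 11.1 kb at 8 Gy in KOSC-2, and 34.4 ± 16.5 and 40.7 ± 14.9 kb in HSC-3, a mean difference of 10.3 kb (exact permutation p = 0.222, adjusted 0.222). With lists of equal length the differences were 10.8 members and 8.09 kb (exact permutation p = 0.0556 for each, the smallest possible). Leaving out each library in turn gave 8 to 26 members and 4.49 to 16.1 kb. Without both short lists the differences were 15.8 members and 9.76 kb (exact permutation p = 0.167 for each, the smallest possible with the libraries left).

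Among single regions, 13 of 138 members (9.42%) were called in both 8 Gy and neither 0 Gy library of KOSC-2, where 3.51% of all merged regions were. The reverse pattern was found for 0 members and 0.870% of all regions. In HSC-3, 5 members (3.62%) were called in both 8 Gy libraries alone, where 0.680% of all regions were, and 0 in both 0 Gy libraries alone, where 0.957% of all regions were. No member was gained in both lines. Members gained in KOSC-2 lay in the first HIST1 window (3) and in the second (10), and 8 of the 13 were called in no HSC-3 library. For these 2 patterns the share over all regions was not counted, so neither is a result about the windows. They were weak to middling peaks, with a median percentile of 36.3 (9.42 to 45.9), against 25.7 for all regions gained in KOSC-2. With a region rule that rests on 2 libraries a dose no test can reach 0.05. The counts depend on the libraries used, and each is given with the share of members and, after it, of all regions. Members gained in KOSC-2 numbered 17 (12.5% against 5.02%) without its 0 Gy replicate 1 and 23 (16.9% against 12.2%) without its 0 Gy replicate 2. They numbered 18 (13.6% against 8.20%) without its 8 Gy replicate 1 and 27 (19.9% against 14.1%) without its 8 Gy replicate 2. Members lost in KOSC-2 were 5 (3.68% against 6.80%), 4 (2.94% against 8.49%), 2 (1.52% against 3.56%) and 1 (0.735% against 1.41%) in the same order. The gained share of members was above that of all regions each time, and the lost share below it. Members gained in HSC-3 numbered 22 (16.4% against 5.66%) without its 0 Gy replicate 1 and 5 (3.62% against 0.955%) without its 0 Gy replicate 2. They numbered 17 (12.5% against 11.4%) without its 8 Gy replicate 1, 9 (6.87% against 3.36%) without its 8 Gy replicate 2 and 18 (13.2% against 12.9%) without both short lists. Without the 8 Gy replicate 1, or without both short lists, the gained share in HSC-3 was thus near the background. Members lost in HSC-3 were 8 (5.80% against 10.7%) without its 0 Gy replicate 2, 12 (9.16% against 7.13%) without its 8 Gy replicate 2 and 9 (6.62% against 11.7%) without both short lists. They were 0 without its 0 Gy replicate 1 (3.08% of all regions) and 0 without its 8 Gy replicate 1 (1.17%).

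The strongest member gained in KOSC-2 was chr6:27247871-27248696, with a summit pileup of 28 and 16 reads at 8 Gy and an authors' fold enrichment of 8.10 and 7.52. Next came chr6:27775486-27775916, with 35 and 22 reads at 8 Gy, which was also called in the HSC-3 0 Gy library replicate 1. At chr6:26156410-26156779 the pileup was 47 and 36 reads, at chr6:27258266-27258674 28 and 23 reads, at chr6:27862021-27862469 43 and 34 reads, and at chr6:27543709-27544187 20 and 12 reads. The smallest pileup called anywhere in the KOSC-2 0 Gy lists was 9 and 6 reads. Where the local background is higher, more reads are needed for a call. Levels below the caller's threshold are not in the lists. The 0 Gy pileups at these regions may thus lie above 9 and 6 reads, and the size of the dose differences is not known. In HSC-3 the gained members were led by chr6:27473323-27473839, with 26 and 28 reads at 8 Gy, which was also called in the KOSC-2 0 Gy library replicate 1 and in both KOSC-2 8 Gy libraries. The others were chr6:27144613-27145219 (25 and 36 reads), chr6:27101561-27101951 (26 and 40 reads), chr6:26017800-26018205 (30 and 34 reads) and chr6:27833808-27834188 (15 and 19 reads). All but the last were also called in at least 1 KOSC-2 library.

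Along the second HIST1 window the order of the doses varied by place and line. The window was divided, after its values were seen, into its first 150 kb, its last 150 kb and the 550 kb between, chr6:27200000-27750000. The middle held 49 regions, of which 6 (12.2%) were called in all 8 libraries, against 4 of 19 and 5 of 20 in the ends. In the middle, 15 and 21 regions were called in KOSC-2 at 0 Gy and 38 and 30 at 8 Gy, and 8 of the 13 members gained in KOSC-2 lay there. In HSC-3 it was 21 and 12 at 0 Gy and 15 and 22 at 8 Gy, with overlap. As shares the middle held 4.45 and 5.94 peaks per 10000 at 0 Gy and 7.54 and 7.78 at 8 Gy in KOSC-2, and 5.72 and 5.96 against 7.55 and 5.34 in HSC-3. In the first 150 kb the shares were 2.88 and 2.199 at 0 Gy and 2.90 and 2.83 at 8 Gy in KOSC-2, which overlapped, and 2.39 and 2.13 against 3.999 and 3.25 in HSC-3, which did not. In the last 150 kb they were 3.40 and 3.08 at 0 Gy and 2.90 and 3.07 at 8 Gy in KOSC-2, so that both irradiated libraries lay below both controls there. In HSC-3 they were 3.34 and 2.98 against 4.89 and 3.48, with the irradiated libraries higher. The numbers of regions called in HSC-3 overlapped between doses in both ends, at 10 and 5 against 9 and 14 in the first and 14 and 7 against 11 and 15 in the last. The difference between the lines was not tested. Which of the 3 parts hold histone genes and which hold other genes was not determined.

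**Figure D4:**
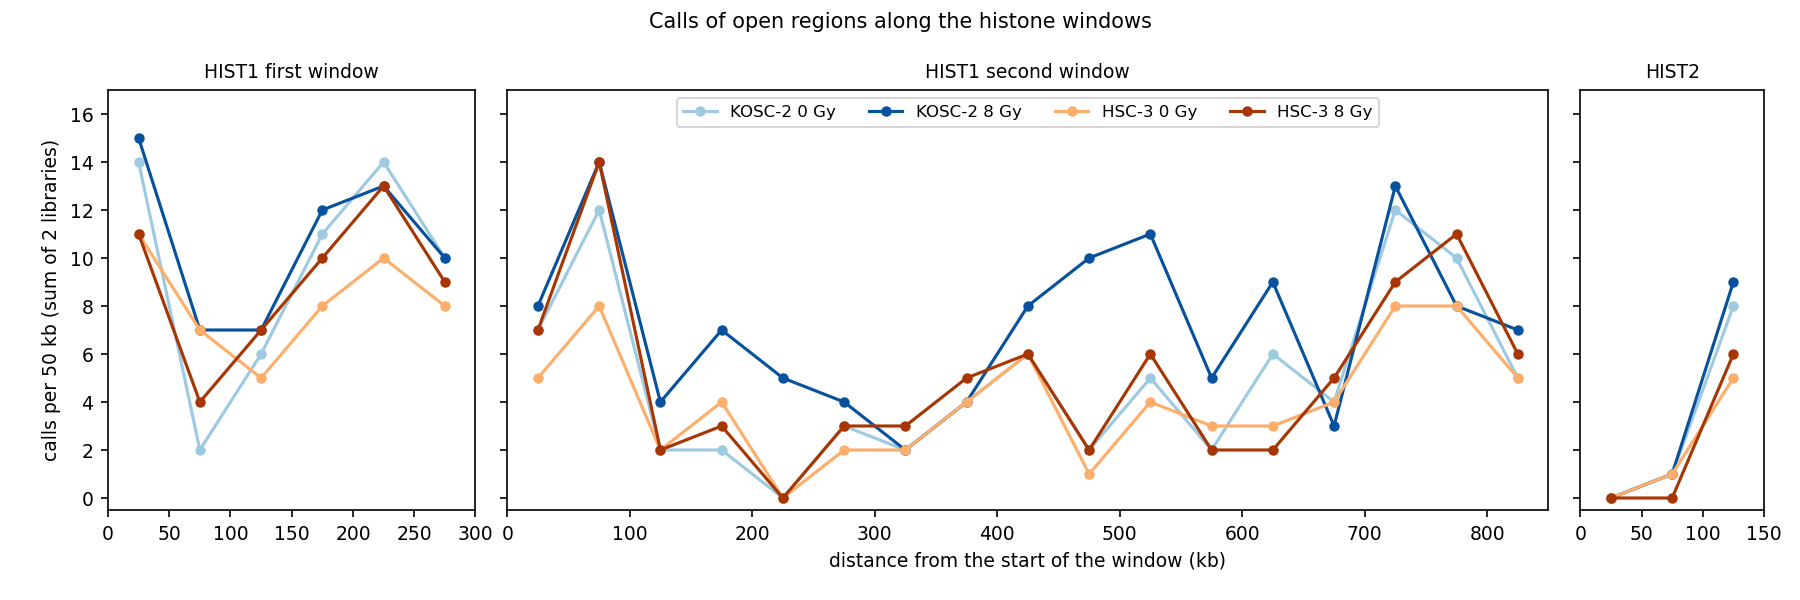
Calls of open regions per 50 kb (vertical axis, summed over the 2 libraries of a group) against the distance from the start of each window in kb. In the second HIST1 window the KOSC-2 8 Gy line stands apart between 450 and 550 kb, with 10 and 11 calls, where the other groups have 1 to 6.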

How the data were processed

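ATAC-seq libraries of 8 samples were used, and groups and replicate numbers come from the labels' titles. The deposited files are 1 narrowPeak list per library without a header. Per the submitters' processing notes, the tools were MACS2 2.2.6, deepTools, SAMtools 1.9, Bowtie2 2.3.4.2 and FastQC 0.11.7 and the build was hg19, with no role named for any. For duplicates, blacklisted regions and a Tn5 shift, the handling is not given in the sources used here. The authors deposited for each peak a score (10 times the −log10 q without decimals), a ratio (the fold enrichment of the summit over local background), a −log10 p-value and −log10 q-value, and the summit offset. These are relative to 1 library and served only for work within a list.

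Peaks on chromosomes 1 to 22 and X were merged over all lists (at least 1 shared bp). A library called a region where it had a peak in it. Pileup and background at each summit were recovered from fold, (pileup + 1) / (background + 1), and the Poisson tail p, searching pileups of 2 to 400. In each list 100% of peaks matched within 0.0001 of −log10 p. Depth is the lowest background of a list, scaled from 300 bp to 10 kb.

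Lines were compared by exact permutation of 4 against 4 libraries (70 assignments), doses within lines (36 assignments), and windows with flanks by exact sign flips (256). Benjamini-Hochberg adjustment was applied with a threshold of 0.05. Gained means called in both 8 Gy and neither 0 Gy library of a line, and lost the reverse.

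Regions named are, by rule, the 5 strongest called in all 8 libraries per window, the 3 widest, line-only, gained or lost members (the 6 strongest of a class), and those next to the window edges. HIST2 regions and neighbouring pairs were chosen after their values were seen. Windows, lists and tests were chosen with earlier results of these data known. Alternatives were lists of equal length (22504 peaks), −log10 q from 5 upward, peaks above the 50th percentile, summits inside the windows, at least 50% of a region covered, windows widened by 50 kb, calls in 3 of 4 libraries, leaving out each library, and blocking by replicate number. Promoters and gene order came from RefSeq tables of GRCh38.p14. Functions were tested on simulated lists. Computation used scipy 1.17.1, pandas 2.3.3, numpy 2.4.6 and matplotlib 3.10.9 under Python 3.11.15.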

Additional observations from a re-analysis of the deposited data

How the results depend on the processing

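The density of the windows over the flanks and the higher share of peaks at 8 Gy kept their direction in each alternative run. No line test passed 0.05 in any alternative. The dose tests cannot go below 0.0556, so that their missing 0.05 shows nothing about stability. The difference in share of peaks by dose ran from 1.66 to 4.21 per 10000 when each library was left out in turn. With lists of equal length, called members by line reversed to -4.25, members gained and lost in KOSC-2 were 6 (6.90%, against 2.12% of all regions) and 1 (1.15% against 1.70%), and those in HSC-3 were 9 (10.3% against 1.81%) and 2 (2.299% in both). With peaks above the 50th percentile, median width by line reversed to -6.38 bp, line-only members were 2, and gained members were 6 in KOSC-2 (7.69% against 3.40%) and 3 in HSC-3 (3.85% against 0.985%). Line-only members were 0 with at least 50% of a region covered, 7 with calls in 3 of 4 libraries and 2 without the 2 short HSC-3 lists, where HSC-3 gained and lost members were 18 and 9. Leaving out each library in turn gave line-only members of 1 to 6, KOSC-2 gained 13 to 27 and lost 0 to 5, HSC-3 gained 5 to 22 and lost 0 to 12, and share of peaks by line from -2.03 to 0.0400 per 10000, reversed without the HSC-3 8 Gy replicate 1. Fewer libraries make these rules easier to meet, and other causes were not tested. For line-only members the share of all regions under each alternative is not given here. Their counts in these runs are therefore no result about the windows.

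Replicate numbers are not stated to pair samples. Over all regions, the replicate 1 minus 2 differences at 0 and 8 Gy correlated at 0.0178 in KOSC-2 and -0.154 in HSC-3. With a replicate block the difference in share of peaks by dose, 2.94 per 10000, had exact permutation p = 0.125, the smallest the block allows, called members by dose 0.375 and called members by line 0.333; no comparison of lines or doses had passed without it. With numbers crossed in HSC-3, added after seeing the data, each of the 3 dose measures had exact permutation p = 0.125, the smallest possible.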

Other observations

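In regions called in all 8 libraries the summit stayed in place about as closely in the histone windows as elsewhere. The highest summits of the 8 libraries spanned a median of 104 bp in the 28 members and 107 bp in all 12827 such regions. The local background at the 28 members was 2.02, 4.46, 4.49 and 5.42 times the genome-wide level in the KOSC-2 libraries and 5.43, 4.02, 2.91 and 7.01 times in the HSC-3 libraries. Over all regions called in all 8 it was 2.68, 4.27, 4.15 and 4.86 times in KOSC-2 and 4.11, 3.17, 2.44 and 4.83 times in HSC-3. The members were thus higher in 7 of 8 libraries, the KOSC-2 0 Gy library replicate 1 being the exception.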
